A study of Mus musculus with 31 samples.

Results

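The proteasome subunits, the interferon-inducible immunoproteasome and the TAP peptide transporter with its loading partner tapasin were followed in the mouse hippocampus after neurons were made to express an antigen of transgenic CD8+ T cells. Members were the genes of the count table whose symbol begins with Psma to Psmg followed by a digit, together with Tap1, Tap2, Tapbp and Pomp, and 53 of the 15648 genes measured met this rule. Bulk RNA-seq of the left hippocampus was performed in 31 OT-I/Rag-/- mice, whose only T cells carry a transgenic receptor for a peptide of ovalbumin (OVA). All mice were injected into the CA1 region of both sides. The rAAV-OVA mice received rAAV-hSyn-OVA-mCherry, which directs OVA and mCherry to neurons through the hSyn promoter, and the rAAV-control mice received rAAV-hSyn-mCherry, which directs mCherry alone. Each vector group held 4 mice at 2, 5 and 28 days after injection, and at 8 days there were 4 rAAV-OVA and 3 rAAV-control mice. The model is limited to a single antigen in neurons that took up the vector and to hosts without B cells or other T cells.

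The proteasome is a barrel, the 20S core, that cuts ubiquitin-marked proteins into peptides after the 19S cap has unfolded them. In most cells, including neurons, its cutting sites are PSMB5, PSMB6 and PSMB7, which interferons allow to be exchanged for PSMB8, PSMB9 and PSMB10 during assembly of new barrels, and PSME1 and PSME2 then form the PA28 cap. The peptides are carried into the endoplasmic reticulum by TAP1 and TAP2 and loaded by tapasin onto MHC class I molecules, where CD8+ T cells read them.

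Promoters of inducible and constitutive genes are given first, since the comparisons turn on these genes. Psmb9, Tap1, Psmb8 and Tap2 lie next to each other on chromosome 17 with 0 coding genes between neighbours, and Psme1 and Psme2 lie on chromosome 14 with 1 coding gene between them. The annotated starts of Psmb9 and Tap1 are 226 bases apart on opposite strands, and their promoter windows share 275 bases. Windows of 300 bases, of which the last 50 follow the start, were taken from RefSeq (GRCm38.p6), and 45 of the 53 members had one. The windows of Psmb9 at chr17:34187281-34187580 (minus strand) and Psme1 at chr14:55578244-55578543 (plus strand) stand for the inducible genes, and that of Psmb5 at chr14:54617946-54618245 (minus strand) for the constitutive ones. Capitals mark the match of 1 motif in each, the NF-κB motif (GGG, any 5 bases, then CC) in Psmb9 (overlapping matches run together), the IRF motif (GAAA, any 2 bases, then GAAA again) on the opposite strand in Psme1 and the antioxidant motif TGACNNNGC, used by NFE2L1, in Psmb5.
Psmb9: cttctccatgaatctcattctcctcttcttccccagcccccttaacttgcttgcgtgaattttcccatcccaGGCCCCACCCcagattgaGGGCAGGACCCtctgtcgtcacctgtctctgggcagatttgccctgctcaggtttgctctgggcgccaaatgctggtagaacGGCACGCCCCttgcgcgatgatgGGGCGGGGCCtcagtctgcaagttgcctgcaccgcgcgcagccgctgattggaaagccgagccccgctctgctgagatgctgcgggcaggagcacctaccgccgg
Psme1: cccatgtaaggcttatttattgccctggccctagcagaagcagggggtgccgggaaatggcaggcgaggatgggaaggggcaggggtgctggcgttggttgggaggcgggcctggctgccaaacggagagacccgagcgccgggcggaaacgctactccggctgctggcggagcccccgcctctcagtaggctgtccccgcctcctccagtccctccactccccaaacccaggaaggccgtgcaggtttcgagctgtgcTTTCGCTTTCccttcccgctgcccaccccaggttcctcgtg
Psmb5: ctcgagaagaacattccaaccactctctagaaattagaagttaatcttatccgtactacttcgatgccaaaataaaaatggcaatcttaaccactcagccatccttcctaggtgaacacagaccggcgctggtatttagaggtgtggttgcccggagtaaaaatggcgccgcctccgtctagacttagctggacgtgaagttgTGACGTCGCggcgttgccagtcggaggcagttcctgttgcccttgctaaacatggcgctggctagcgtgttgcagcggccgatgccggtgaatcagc
Both strands were searched, and a motif may overlap another. The IRF motif was found in 5 of the 45 members, in 3.44% of all 32851 promoters and in 3.12% of the 14810 promoters of genes tested here. The NF-κB motif was found in 26 members, 50.8% of all promoters and 65.7% of those of tested genes, and the antioxidant motif in 6 members, 12.4% and 13.9%. The 9 genes called higher below in these same data were taken as the inducible members, and 8 of them had a window. Of these 8, Psme1 alone held the IRF motif and 5 held the NF-κB motif, among them Psmb9 and Tap1, whose windows largely coincide. Of the 37 other members with a window, 4 held the IRF motif and 21 the NF-κB motif. These are matches of letters in short windows only.

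The libraries held 19046977 to 57407902 counts (median 27024978), and 52 of the 53 members had at least 15 counts in every mouse. The labels assign 23 mice to batch 1 and 8 to batch 2, with all mice of 5 and 8 days in batch 1 and with 2 mice of each batch in every group at 2 and 28 days. Single mice stood apart from their groups. The rAAV-control mouse D720 at 8 days had raised immunoproteasome and TAP transcripts, and the rAAV-OVA mouse D844 at 28 days had levels near those of the control mice. The rAAV-OVA mouse BEC-B542 at 2 days had an inducible share of catalytic transcripts of 20.7%, against 9.05% to 11.6% in its group. Markers of neurons were high in all mice, with summed levels between 4395 and 14005 CPM, which are counts scaled to a common library size. Fewer cells of a type and less RNA per cell cannot be told apart in bulk RNA.

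Members were compared in a model of all mice and all 15648 genes, with edgeR's quasi-likelihood test, 8 groups and 2 surrogate variables. A DEG had to reach an FDR (Benjamini-Hochberg) of 0.05 or below and a Log2FC, rAAV-OVA over rAAV-control, of 0.66 or more in absolute size. At 2 days, 0 of the 53 members were DEGs, as were 0% of all genes in either direction, 0 members and 1428 genes had an unadjusted p under 0.05, and DESeq2 also called 0 members. At 5 days, 9 of 53 members were higher DEGs, against 9.56% of all genes. There were 9 again at 8 days, against 9.36%, and 9 at 28 days, against 12.7%. The same 9 genes were called at all 3 time points, namely Psmb8, Psmb9, Psmb10, Psme1, Psme2, Psme2b, Tap1, Tap2 and Tapbp. At 8 days the count depended on the fit. It was 5 without covariates, 4 without the control mouse D722 and, as for all genes, 0 with the mice of that day alone. No member was a lower DEG at 5, 8 or 28 days, whereas 4.67%, 0.588% and 4.86% of all genes were.

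None of the 44 remaining members was a DEG. Over the time points in order, their median Log2FC was 0.00, 0.11, 0.04 and 0.07, and the median of all genes was 0.01, −0.01, −0.03 and 0.01. Positive values were found in 23, 35, 27 and 31 of the 44, and in 52.9%, 48.7%, 46.8% and 51.3% of all genes. With the FDR alone and no limit on the Log2FC, 16 members passed in the upward direction at 5 days (15.2% of all genes), 13 at 8 days (13.9%) and 12 at 28 days (19.2%), and 1 passed downward at 28 days (14.3%).

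**Figure D1:**
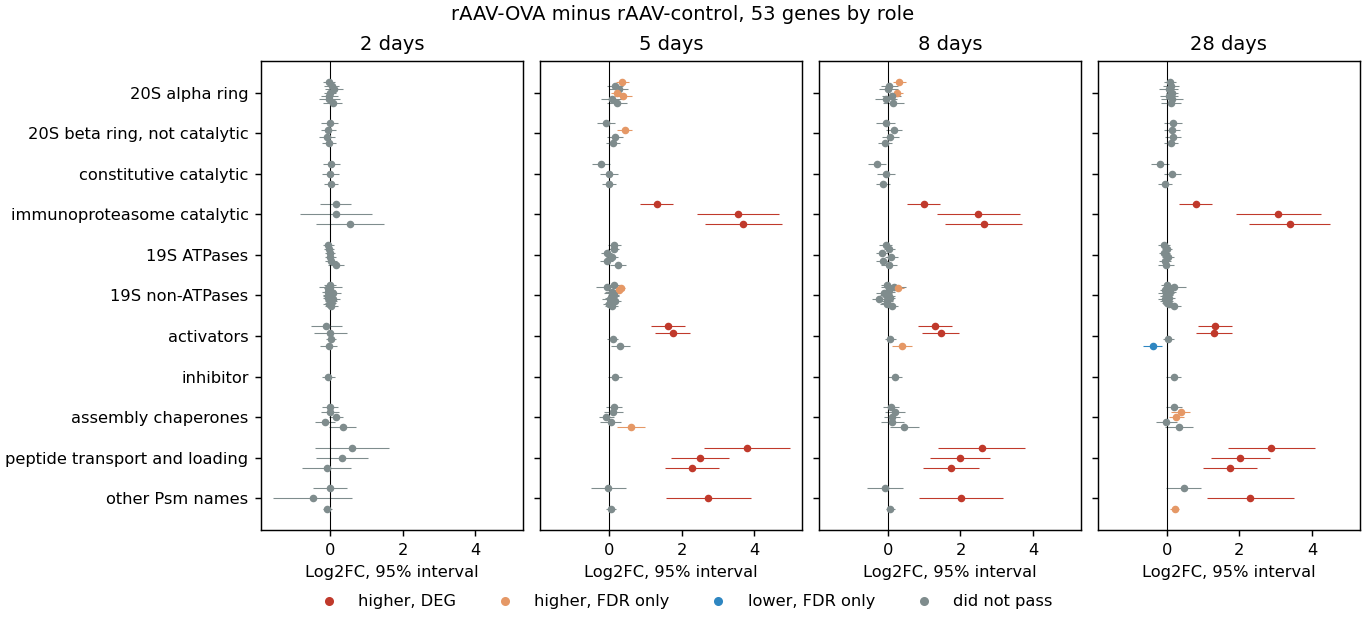
Log2FC of all 53 members (rAAV-OVA over rAAV-control, 1 point per gene, lines for the 95% interval) at 2, 5, 8 and 28 days, arranged by their role in the proteasome or in peptide loading. The 9 DEGs, set apart by the limits on FDR and Log2FC, reach a Log2FC of up to 3.80 (Tap1 at 5 days). The interval of Psmb10 overlaps those of other members at 8 and 28 days.

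Among the catalytic subunits, the inducible genes were raised from 5 days on and their constitutive counterparts did not pass the test. Psmb8 (ENSMUSG00000024338) encodes the inducible chymotrypsin-like subunit. Values per mouse are given in the same order of mice for every gene. At 2 days Psmb8 was at 9.97, 41.7, 21.5 and 21.5 CPM in rAAV-OVA mice and at 13.005, 17.6, 17.9 and 24.5 CPM in rAAV-control mice. The groups overlapped, and the Log2FC was 0.16 with a 95% interval from −0.82 to 1.15 (edgeR FDR 0.944). At 5 days, Psmb8 was at 196, 143, 178 and 166 CPM in rAAV-OVA mice and at 3.31, 9.97, 6.42 and 8.22 CPM in rAAV-control mice. Every rAAV-OVA mouse lay far above every control mouse, with a Log2FC of 3.56 (SE 0.55, edgeR FDR 7.08e-05). At 8 days the values were 203, 83.9, 136 and 154 CPM in rAAV-OVA mice and 4.30, 86.3 and 16.5 CPM in rAAV-control mice. The control mouse at 86.3 CPM was D720, which lay above the lowest rAAV-OVA mouse, so the groups overlapped (Log2FC 2.50, SE 0.56, edgeR FDR 0.00343). At 28 days, Psmb8 was at 189, 71.9, 14.2 and 145 CPM in rAAV-OVA mice and at 2.60, 2.56, 8.39 and 4.73 CPM in rAAV-control mice. The groups did not overlap, although D844 at 14.2 CPM came close to the highest control mouse (Log2FC 3.07, SE 0.56, edgeR FDR 0.000513).

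Psmb9 (ENSMUSG00000096727), the inducible subunit that replaces PSMB6, was at 66.5, 54.6, 70.6 and 57.4 CPM in rAAV-OVA mice at 5 days and at 1.34, 3.65, 2.23 and 2.58 CPM in rAAV-control mice. The groups were fully separated and the Log2FC was 3.70 (SE 0.51, edgeR FDR 2.45e-05). At 8 days it was at 88.1, 38.5, 60.4 and 67.7 CPM against 1.92, 31.6 and 6.37 CPM, and at 28 days at 80.2, 28.5, 6.38 and 60.8 CPM against 1.17, 1.05, 2.58 and 1.60 CPM. All rAAV-OVA mice lay above all control mice on both days (Log2FC 2.64 and 3.39, edgeR FDR 0.00119 and 0.000198). At 2 days the Log2FC was 0.55, with an interval from −0.37 to 1.48, and the single high value was 19.2 CPM in rAAV-OVA mouse BEC-B542, next to 3.38, 11.6 and 8.96 CPM in the other rAAV-OVA mice.

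Psmb10 (ENSMUSG00000031897), the inducible trypsin-like subunit that replaces PSMB7, had the smallest Log2FC of the 3 at 5, 8 and 28 days. At 5 days it was at 89.9, 72.8, 87.2 and 87.4 CPM in rAAV-OVA mice and at 22.8, 23.1, 26.7 and 26.3 CPM in rAAV-control mice. The separation was complete and the Log2FC was 1.32 (SE 0.22, edgeR FDR 0.000127). The groups overlapped at 8 days (90.2, 54.0, 77.5 and 76.4 CPM against 20.8, 60.8 and 26.98 CPM) and at 28 days (77.0, 38.5, 19.7 and 61.4 CPM against 21.6, 17.6, 18.4 and 18.5 CPM), through D720 and D844 respectively. The Log2FC was 0.98 at 8 days (edgeR FDR 0.00400) and 0.79 at 28 days (edgeR FDR 0.00861). The call at 28 days ended without D661 (0.57), without D851 (0.58) and without D696 (0.65), and that at 8 days without D722, D845 or D696.

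**Figure D2:**
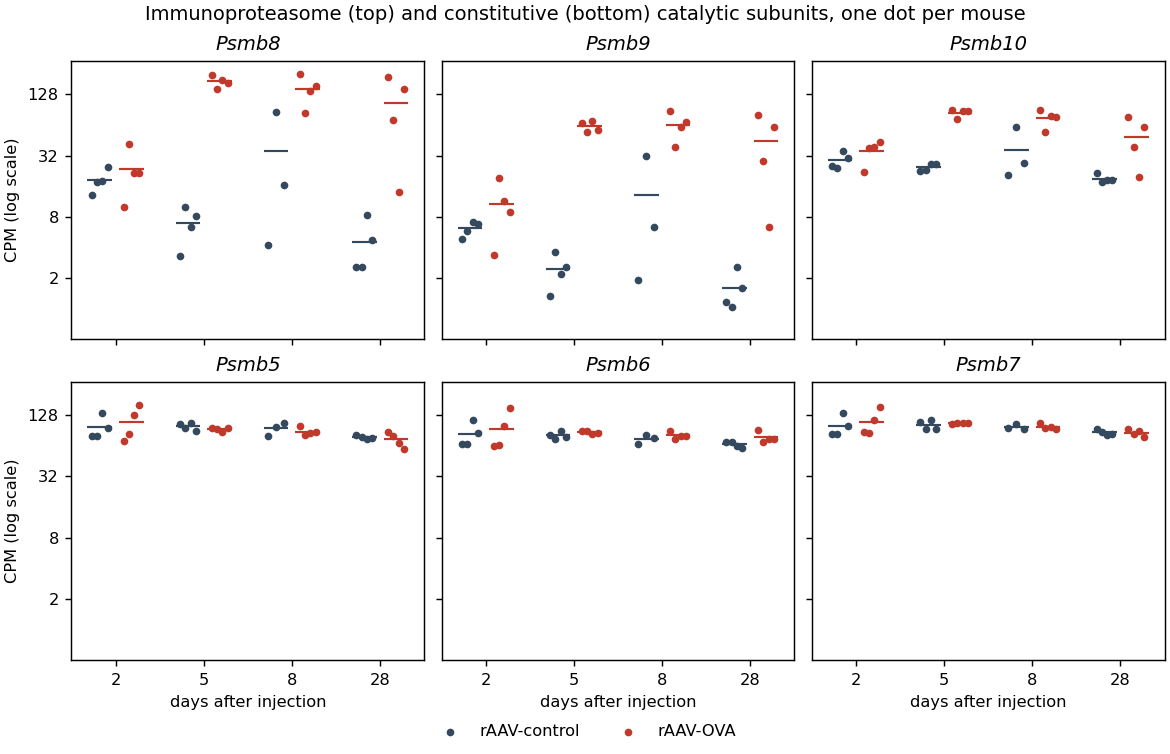
Level of the inducible subunits Psmb8, Psmb9 and Psmb10 and of their constitutive counterparts Psmb5, Psmb6 and Psmb7 in every mouse (CPM on a log axis) at 2, 5, 8 and 28 days, with the group mean as a bar. The inducible genes separate by vector at 5 days, for example Psmb8 with 143 to 196 CPM against 3.31 to 9.97 CPM, and the constitutive genes overlap at all time points.

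The constitutive counterparts overlapped between the vectors at every time point. Psmb5 (ENSMUSG00000022193), the chymotrypsin-like subunit, was at 95.2, 93.6, 86.3 and 95.3 CPM in rAAV-OVA mice at 5 days and at 103, 96.3, 108 and 89.5 CPM in rAAV-control mice. Its Log2FC on that day was −0.23 (95% interval −0.47 to 0.02, edgeR FDR 0.150). It was −0.29 (−0.54 to −0.04, edgeR FDR 0.0961) at 8 days and −0.18 (−0.42 to 0.07) at 28 days. Without covariates the Log2FC of Psmb5 was −0.10, −0.11 and −0.07 at 5, 8 and 28 days, and at 28 days it was 0.15 without D845 and 0.11 in batch 1 alone. Psmb6 (ENSMUSG00000018286), the caspase-like subunit, was at 89.0, 90.2, 83.2 and 85.7 CPM against 80.8, 75.2, 89.4 and 78.0 CPM at 5 days. Its Log2FC was −0.00 (−0.24 to 0.24), followed by −0.06 (−0.31 to 0.19) at 8 days and 0.15 (−0.09 to 0.39) at 28 days. Psmb7 (ENSMUSG00000026750), the trypsin-like subunit, was at 105, 108, 107 and 107 CPM against 108, 93.8, 114 and 94.4 CPM at 5 days. Here the Log2FC was 0.01 (−0.18 to 0.20), and later −0.13 (−0.33 to 0.07) at 8 days and −0.03 (−0.23 to 0.16) at 28 days. Fitted without covariates, the Log2FC at 5, 8 and 28 days was 0.11, 0.13 and 0.24 for Psmb6 and 0.06, 0.01 and −0.01 for Psmb7. At 28 days, Psmb5 was at 88.1, 79.7, 68.2 and 60.1 CPM in rAAV-OVA mice and at 82.3, 78.3, 73.9 and 76.8 CPM in rAAV-control mice, and Psmb6 and Psmb7 overlapped in the same way.

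The ratio of each inducible subunit to the one it replaces was taken within each mouse, which removes library depth. The Psmb8/Psmb5 count ratio was 28.0-fold higher in rAAV-OVA than in rAAV-control mice at 5 days, with a difference of 4.81 in mean log2 ratio (n = 4 each, 2-sided exact permutation test, p = 0.0286, the smallest this design allows). It was 8.05-fold higher at 8 days (difference 3.01, n = 4 and 3, exact permutation p = 0.0571, the smallest possible there) and 19.04-fold higher at 28 days (difference 4.25, n = 4 each, exact permutation p = 0.0286). In all 3 cases the groups did not overlap. The Psmb9/Psmb6 ratio differed by 4.63, 2.93 and 4.10 at these time points, also without overlap. The Psmb10/Psmb7 ratio differed by 1.71 at 5 days without overlap, by 1.16 at 8 days (n = 4 and 3, exact permutation p = 0.114) and by 1.21 at 28 days (n = 4 each, exact permutation p = 0.0857), both with overlap. At 2 days the differences were 0.09, 0.44 and 0.15, and without BEC-B542 −0.36, −0.07 and −0.01. When single mice were dropped, the Psmb8/Psmb5 difference ran between 4.47 and 5.03 at 5 days. Its range was 2.08 (without D696) to 4.10 (without D720) at 8 days, and 28-day values were 3.82 (without D845) to 5.00 (without D844). Taken from the Log2FC of the model, the Psmb8/Psmb5 difference was 3.79, 2.79 and 3.25 on the 3 later days, that of Psmb9/Psmb6 3.70, 2.70 and 3.23, and that of Psmb10/Psmb7 1.31, 1.12 and 0.83. None of the 12 comparisons of per-mouse ratios by the exact permutation test passed 0.05 after Benjamini-Hochberg adjustment, and the lowest adjusted value was 0.0686. Within batch 1 at 28 days the differences were 5.42 for Psmb8/Psmb5, 5.20 for Psmb9/Psmb6 and 1.51 for Psmb10/Psmb7, and within batch 2 they were 3.08, 3.01 and 0.91.

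Levels per kilobase of transcript allow the 6 catalytic genes to be compared with each other. At 5 days in rAAV-OVA mice, the mean was 105 CPM per kilobase for Psmb8, 46.1 for Psmb9 and 64.3 for Psmb10, next to 122 for Psmb5, 109 for Psmb6 and 92.1 for Psmb7. In rAAV-control mice the same genes were at 4.29, 1.81 and 18.9 CPM per kilobase against 131, 101 and 88.6. By these means the constitutive gene was the more abundant in each pair at 5 days. At 28 days, Psmb8 per length was 112.9% of Psmb5 in D845, 99.96% in D661, 42.2% in D667 and 9.71% in D844. The inducible genes together made up 42.1%, 35.8%, 42.4% and 39.4% of the catalytic transcripts per length in rAAV-OVA mice at 5 days and 5.82%, 8.05%, 6.87% and 8.35% in rAAV-control mice. At 8 days the shares were 43.5%, 30.02%, 38.7% and 40.8% against 6.87%, 27.8% and 10.1%, and at 28 days 42.9%, 26.3%, 9.86% and 43.1% against 6.43%, 5.60%, 7.86% and 6.79%. The lowest rAAV-OVA mouse stayed above the highest control mouse on each of these days, by little at 8 and 28 days. At 2 days the mean share was 12.7% ± 5.50 (SD, n = 4) in rAAV-OVA mice and 10.8% ± 1.28 (n = 4) in rAAV-control mice.

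**Figure D3:**
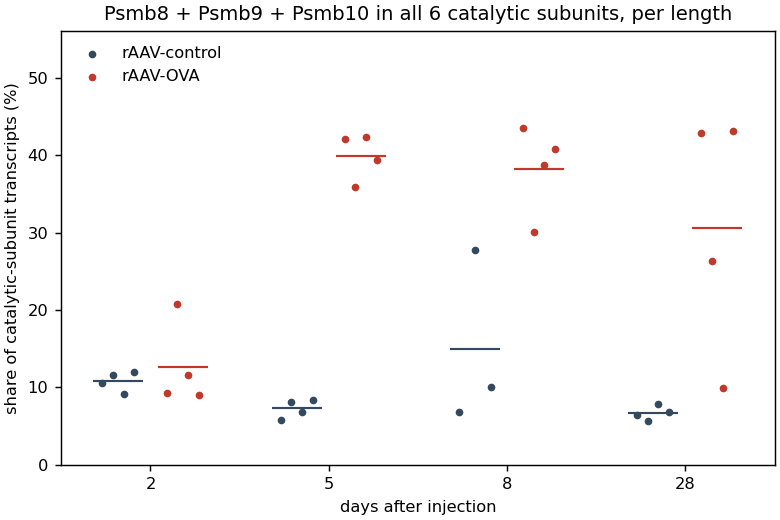
Share of Psmb8, Psmb9 and Psmb10 in the summed transcripts of the 6 catalytic genes per length (percent, 1 point per mouse, bars at the group mean) by day and vector. rAAV-OVA mice reach 35.8% to 42.4% at 5 days, where control mice are at 5.82% to 8.35%, and D720 (27.8%, control, 8 days) and D844 (9.86%, rAAV-OVA, 28 days) stand apart.

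The size of the response depended on the covariates and, at 8 and 28 days, on single mice. Without covariates the Log2FC of Psmb8 was 4.60 at 5 days and 4.52 at 28 days, and that of Tap1 was 4.81 and 4.34. At 8 days the calls of Psmb8, Tap1, Tap2 and Tapbp were lost without covariates (edgeR FDR between 0.0535 and 0.0728), with a Log2FC of 2.02, 2.03, 1.63 and 1.48. Without D720, all 9 genes were called at 8 days, as were 9.87% of all genes. The Log2FC was then 3.45 for Psmb8 (edgeR FDR 0.000728), 3.54 for Psmb9, 3.42 for Tap1, 2.59 for Tap2 and 2.40 for Tapbp. Without the control mouse D696 it was 1.55 for Psmb8, 1.75 for Psmb9, 1.68 for Tap1, 1.35 for Tap2 and 1.13 for Tapbp. Without the control mouse D722 the count was 4, with 493 of 15648 genes called, since Psmb8 (edgeR FDR 0.0626), Psmb10, Tap1, Tapbp and Psme2b lost their calls, and Psmb8 and Tap1 also lost theirs without BEC-B541 or without D845, which are mice of other days. Without D844 all 9 genes were called at 28 days, with a Log2FC of 3.51 for Psmb8 and 3.04 for Psme2b. Without D845 the 28-day Log2FC was 3.73 for Psmb8 and 4.03 for Psmb9. At 28 days in batch 1 alone, Psmb8 had a Log2FC of 5.70 (edgeR FDR 0.0144), and in batch 2 alone, which holds D844, 3.59 (edgeR FDR 0.373, n = 2 each).

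Markers of T cells, monocytes and macrophages were raised on the same days as these genes, as were some microglia markers. At 5, 8 and 28 days, 9.56%, 9.36% and 12.7% of all genes were higher DEGs. The T cell markers measured were Cd8a, Gzmb and Lck, 3 of a list of 10, and all 3 were higher DEGs at 5, 8 and 28 days. On these days in order, their summed level was 76.0 to 112, 90.0 to 269 and 10.8 to 252 CPM in rAAV-OVA mice, against 1.16 to 3.36, 2.72 to 24.2 and 0.870 to 1.96 CPM in rAAV-control mice. The highest control value was that of D720 and the lowest rAAV-OVA value that of D844. At 2 days the sums were 1.04 to 1.98 CPM and 1.63 to 1.95 CPM. Of 8 monocyte and macrophage markers, 6, 6 and 8 were higher DEGs at 5, 8 and 28 days, with sums of 719 to 1418 CPM in rAAV-OVA and 21.3 to 184 CPM in rAAV-control mice at 5 days. At 2 days these sums were 79.7 to 158 CPM in rAAV-OVA and 183 to 1053 CPM in rAAV-control mice. Of 8 microglia markers, 4, 2 and 6 were higher DEGs, with sums of 1144 to 1163 CPM against 510 to 803 CPM at 5 days. On that day 1 of them passed the FDR alone downward (Log2FC −0.65). At 8 days the microglia sums overlapped (1034 to 1505 against 422 to 1279 CPM). Of 8 neuron markers, 1, 0 and 4 were lower DEGs, where 4.67%, 0.588% and 4.86% of all genes were. Their sums were 7789 to 9213 CPM against 11144 to 14005 CPM at 5 days. At 5 days, 3 of 4 oligodendrocyte markers (2424 to 3631 against 3876 to 6728 CPM) and 4 of 4 choroid plexus markers (39.6 to 123 against 37.7 to 3705 CPM) were lower DEGs. At 28 days 2 of 4 endothelium markers and 1 of 5 astrocyte markers were higher DEGs, next to 12.7% of all genes. The part of these cells in the levels of the inducible genes was not tested.

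**Figure D4:**
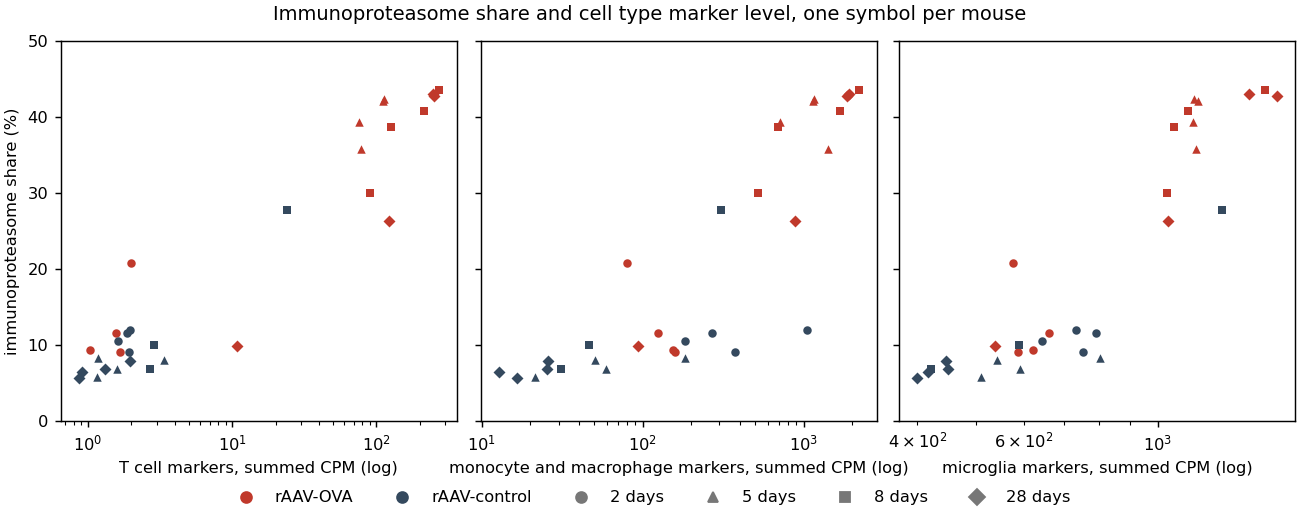
Share of the inducible subunits in catalytic transcripts (percent) in each of the 31 mice against the summed CPM (log axes) of the T cell markers Cd8a, Gzmb and Lck, of 8 monocyte and macrophage markers and of 8 microglia markers, with colour for vector and symbol shape for day. Control mouse D720 (share 27.8%, T cell markers 24.2 CPM) and rAAV-OVA mouse D844 (9.86%, 10.8 CPM) lie between the bulk of the 2 vector groups on the T cell axis.

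Of the proteasome activators, the PA28 genes Psme1 and Psme2 were raised and Psme3 was not called. Psme1 (ENSMUSG00000022216), the alpha subunit of PA28, was at 154, 127, 151 and 142 CPM in rAAV-OVA mice at 5 days and at 29.9, 32.3, 35.5 and 32.4 CPM in rAAV-control mice. No values overlapped, and the Log2FC was 1.63 (SE 0.22, edgeR FDR 2.26e-05). Psme2 (ENSMUSG00000079197), the beta subunit, was at 118, 91.6, 109 and 94.4 CPM against 19.5, 22.3, 19.96 and 20.3 CPM. The control values lay close together and the Log2FC was 1.75 (SE 0.24, edgeR FDR 1.94e-05). At 8 days, Psme1 was at 184, 91.4, 122 and 139 CPM against 30.7, 91.9 and 34.5 CPM (Log2FC 1.29, edgeR FDR 0.000610), with D720 just above the lowest rAAV-OVA mouse. Psme2 was at 139, 61.5, 90.3 and 106 CPM against 18.8, 60.0 and 22.8 CPM (Log2FC 1.45, edgeR FDR 0.000429), with D720 just below it. At 28 days, Psme1 was at 168, 78.4, 38.8 and 144 CPM against 25.3, 25.4, 26.2 and 30.4 CPM, and Psme2 at 123, 51.0, 25.1 and 96.0 CPM against 17.9, 17.9, 16.4 and 17.8 CPM. Both were separated from the controls in all mice, D844 included (Log2FC 1.34 and 1.30, edgeR FDR 0.000262 and 0.000539). At 2 days the Log2FC was −0.10 (−0.53 to 0.32) for Psme1 and 0.00 (−0.45 to 0.46) for Psme2.

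Psme2b (ENSMUSG00000078153), a near-identical copy of Psme2 whose reads cannot be assigned with certainty, was called at 5, 8 and 28 days with a Log2FC of 2.74, 2.01 and 2.30. Its levels were low, between 1.96 and 4.05 CPM in rAAV-OVA mice and 0.134 to 0.431 CPM in rAAV-control mice at 5 days. Psme3, which encodes the nuclear activator PA28 gamma, had a Log2FC of 0.02, 0.10, 0.07 and 0.04 on the 4 days. Psme4, which encodes the activator PA200, had an FDR under 0.05 upward at 8 days and downward at 28 days, and each was lost without single mice, at 28 days without D844 (edgeR FDR 0.621) or D661. It was at 59.3, 47.9, 48.5 and 45.8 CPM in rAAV-OVA mice at 5 days and at 37.7, 39.9, 33.8 and 32.7 CPM in rAAV-control mice. The rAAV-OVA mice were all higher, with a Log2FC of 0.31 (edgeR FDR 0.0661). The Log2FC was 0.38 at 8 days (edgeR FDR 0.0443, above 0.05 when any mouse of that day was left out and 0.204 without covariates) and −0.39 at 28 days (edgeR FDR 0.0219, with −0.17 and 0.432 without covariates and a Log2FC of −0.06 in batch 1 alone), where the values were 40.9, 38.7, 28.1 and 53.5 CPM against 40.5, 45.5, 48.3 and 47.3 CPM. The highest and the lowest of these 8 mice were both rAAV-OVA mice, and without D844 the Log2FC at 28 days was −0.11 (edgeR FDR 0.621).

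**Figure D5:**
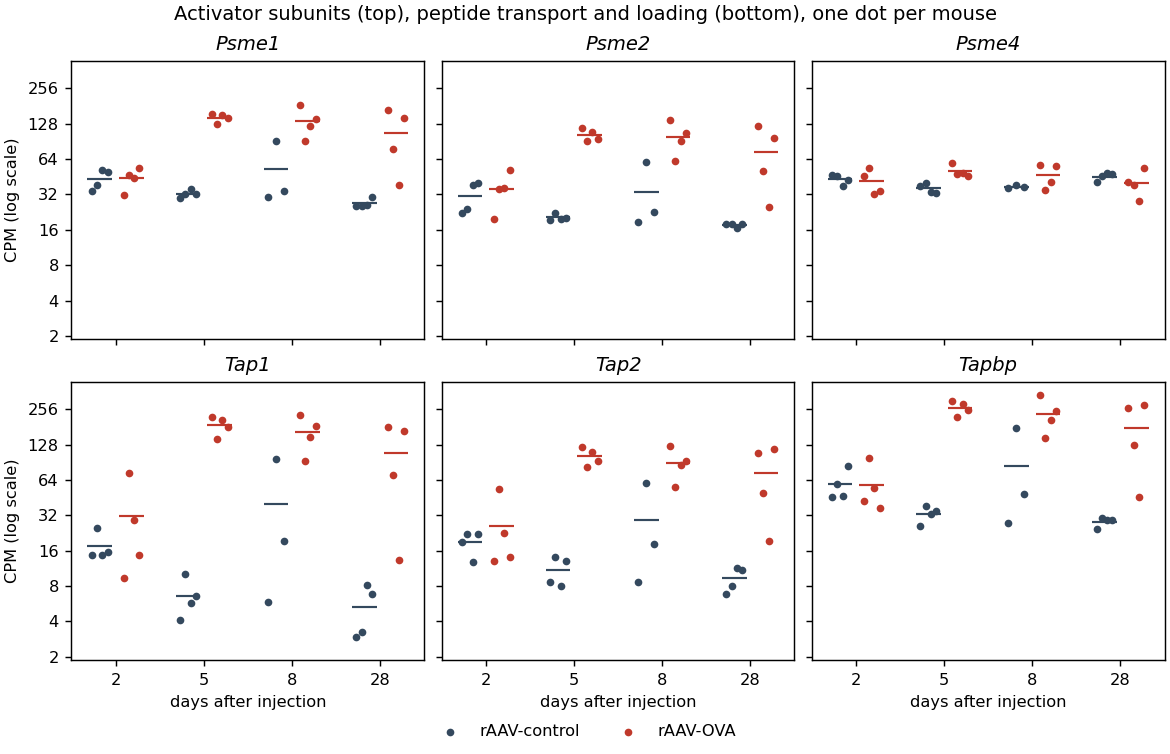
Level of the activator genes Psme1, Psme2 and Psme4 and of the peptide transport and loading genes Tap1, Tap2 and Tapbp in every mouse (CPM on a log axis) at 2, 5, 8 and 28 days, with the group mean as a bar. All 6 genes separate by vector at 5 days, Psme4 only narrowly (45.8 to 59.3 against 32.7 to 39.9 CPM), and at 8 days control mouse D720 lies within or next to the rAAV-OVA mice.

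None of the structural subunits of the barrel or of its 19S cap was a DEG. In the alpha ring, 0 of 7 genes were DEGs on any day, and at 5 days Psma1, Psma4 and Psma5 passed the FDR alone with a Log2FC of 0.37, 0.22 and 0.40, as did Psma1 and Psma4 at 8 days with 0.32 and 0.25, though Psma4 did not without D720 (edgeR FDR 0.0775). The whole ring lay between 0.08 and 0.40 at 5 days and between 0.05 and 0.15 at 28 days. Of the 4 beta subunits without a cutting site, Psmb2 passed the FDR alone at 5 days (Log2FC 0.44, edgeR FDR 0.00233) and none at 8 or 28 days. Of the 6 ATPases that unfold substrates, Psmc1 to Psmc6, 0 passed the FDR on any day, with a Log2FC between −0.06 and 0.25 at 5 days, −0.16 and 0.10 at 8 days and −0.08 and 0.03 at 28 days. Among the 14 non-ATPase genes of the cap, the lid genes Psmd11 and Psmd12 passed the FDR alone at 5 days with 0.32 and 0.27, and Psmd11 did so at 8 days with 0.29. At 5 days, 23 members had all rAAV-OVA mice above all control mice, next to 21% of all genes, and at 28 days 13 had, next to 15%. At 8 days 11 had (14.4% of all genes) and Psmd5 had all rAAV-OVA mice below the controls (11.9% of all genes), with a Log2FC of −0.23 (edgeR FDR 0.109). Psma8 and Psmb11 were not analysed here.

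Assembly factors and the inhibitor were not DEGs. Pomp, the chaperone on which new barrels mature, had a Log2FC of 0.14 at 5 days (95% interval −0.08 to 0.36), then 0.09 and 0.20 at 8 and 28 days. The alpha ring chaperones Psmg1 and Psmg2 passed the FDR alone at 28 days with 0.39 and 0.26 (edgeR FDR 0.0236 and 0.0484), and their partner Psmg3 did not pass on any day. Psmg4 had the highest Log2FC of the remaining members at 2, 5 and 8 days. It was at 7.99, 9.33, 7.33 and 6.98 CPM in rAAV-OVA mice at 5 days and at 3.67, 3.58, 5.75 and 4.43 CPM in rAAV-control mice. All rAAV-OVA mice were above all control mice, and the Log2FC of 0.60 (SE 0.19, edgeR FDR 0.0186) fell short of the limit of 0.66. Without covariates it was 0.86, past that limit. Psmf1, which encodes the inhibitor PI31, had a Log2FC of 0.16, 0.20 and 0.19 at 5, 8 and 28 days (edgeR FDR 0.126 or more). Psme3ip1 and Psmc3ip do not encode subunits. Psme3ip1 passed the FDR alone upward at 28 days. Psmc3ip had the highest Log2FC of the remaining members at 28 days with 0.47 (−0.01 to 0.95, edgeR FDR 0.124).

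The genes of peptide transport and loading rose with the immunoproteasome. Tap1 (ENSMUSG00000037321), a chain of the TAP transporter, was at 218, 143, 206 and 181 CPM in rAAV-OVA mice at 5 days and at 4.12, 10.05, 5.79 and 6.58 CPM in rAAV-control mice. This was the largest Log2FC of all members, 3.80 (SE 0.57, edgeR FDR 5.87e-05), and the groups were far apart. At 8 days Tap1 was at 230.3, 93.1, 149.8 and 184 CPM against 5.89, 95.6 and 19.4 CPM, and at 28 days at 181, 70.3, 13.4 and 167 CPM against 2.96, 3.25, 8.24 and 6.86 CPM. D720 lay above the lowest rAAV-OVA mouse at 8 days, and D844 was the lowest rAAV-OVA mouse at 28 days but above all controls (Log2FC 2.58 and 2.88, edgeR FDR 0.00343 and 0.000895). At 2 days it was at 9.45, 72.8, 29.4 and 14.6 CPM against 14.8, 24.8, 14.8 and 15.6 CPM. The value of 72.8 CPM belonged to BEC-B542, and the Log2FC was 0.59 with an interval from −0.42 to 1.61 (edgeR FDR 0.783).

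Tap2 (ENSMUSG00000024339), the other chain of the transporter, was at 122, 82.4, 111 and 92.9 CPM in rAAV-OVA mice at 5 days and at 8.73, 14.2, 8.09 and 13.1 CPM in rAAV-control mice. The groups did not overlap (Log2FC 2.49, SE 0.39, edgeR FDR 7.73e-05). Tapbp (ENSMUSG00000024308), the gene of tapasin, was at 303, 218, 281 and 252 CPM against 26.04, 38.4, 32.9 and 35.2 CPM and did not overlap either (Log2FC 2.28, SE 0.36, edgeR FDR 9.84e-05). At 8 days, Tap2 was at 124, 55.2, 85.8 and 93.3 CPM against 8.69, 60.3 and 18.2 CPM, and Tapbp at 341, 145, 207 and 247 CPM against 27.7, 177 and 48.2 CPM. Both overlapped through D720 (Log2FC 1.99 and 1.74, edgeR FDR 0.00161 and 0.00273). At 28 days, Tap2 was at 109, 49.7, 19.3 and 117 CPM against 6.92, 8.06, 11.4 and 11.03 CPM, and Tapbp at 260.4, 126, 45.5 and 280.1 CPM against 24.4, 30.3, 29.1 and 29.1 CPM. Neither overlapped (Log2FC 2.03 and 1.74, edgeR FDR 0.000723 and 0.00123).

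The change in response between time points was tested as an interaction. Between 2 and 5 days the response increased in 9 of the 53 members, next to 9.98% of all genes, and decreased in 0, next to 4.33%. These were the 9 genes already called at 5 and not at 2 days, so this test adds little to those calls. The increase in Log2FC was 3.40 for Psmb8 (edgeR FDR 0.00201), 3.15 for Psmb9, 1.16 for Psmb10, 1.73 for Psme1, 1.75 for Psme2 and 3.21 for Tap1. Between 5 and 8 days, 0 members passed in either direction, next to 0.0575% and 0.121% of all genes. The difference was −1.06 for Psmb8 (−2.65 to 0.52), −1.07 for Psmb9 (−2.52 to 0.39) and −1.22 for Tap1 (−2.84 to 0.40), so these intervals include a large decline as well as none. Without D720 these differences were −0.34, −0.36 and −0.60, and without D845, a mouse of another day, they were −2.23, −2.10 and −2.22. Between 8 and 28 days, 0 members and 0% of all genes passed, and the difference for Psmb8 was 0.57 (−1.07 to 2.21), with −0.03 without D720 and 2.06 without D845. Between 5 and 28 days, Psme4 alone passed, with a difference of −0.70 (edgeR FDR 0.0106), next to 2.32% of all genes lower and 3.86% higher. This call ended without covariates (−0.66, edgeR FDR 0.123) and without D844 (−0.48, edgeR FDR 0.0991). Psme4 also lost this call when any of D684, BEC-B541, BEC-B542, D740, D725, D723, D755, D701, D722 or D851 was left out. With the FDR alone, Psmd11 (−0.28) and Psmd12 (−0.33) also had a lower response at 28 than at 5 days, next to 4.05% of all genes. The tests share mice where a time point is used more than once.

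In rAAV-control mice the inducible genes were higher at 2 days than at 28 days, without passing the test. Psmb8 was at 13.005 to 24.5 CPM at 2 days and at 2.56 to 8.39 CPM at 28 days. These ranges did not overlap, and the Log2FC of 28 over 2 days was −1.51 (−2.59 to −0.43, unadjusted p = 0.0080, edgeR FDR 0.144). It was −1.48 for Psmb9 (edgeR FDR 0.150) and −1.30 for Tap1 (edgeR FDR 0.249). None of the members were called, next to 2.82% of all genes lower and 0.134% higher. Without D720 or without D843, Psmb8 was called (Log2FC −1.67 and −2.08), and with DESeq2 Psmb9 was. In the same control mice, the summed monocyte and macrophage markers were at 183 to 1053 CPM at 2 days and 12.8 to 25.7 CPM at 28 days, and the microglia markers at 642 to 790 and 400 to 449 CPM. Their part in the result was not tested.

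Further genes of antigen presentation were raised on the same days. Of 11 class I presentation genes, 0, 10, 8 and 8 were DEGs at 2, 5, 8 and 28 days, all higher. At 5 days the exception was the chaperone gene Canx (Log2FC 0.20). B2m, the light chain of MHC class I, was at 1543 ± 122 CPM in rAAV-OVA and 148 ± 34.5 CPM in rAAV-control mice at 5 days (SD, n = 4 each), with a Log2FC of 2.62 (edgeR FDR 0.000644). The peptide trimming gene Erap1 had a Log2FC of 1.95, the tapasin relative Tapbpl 2.36 and Nlrc5, the activator of MHC class I transcription, 4.53. The interferon pathway factor Irf1 had 3.59 at 5 days and 2.16 at 28 days. Of 12 proteasome partners measured of 14 listed, 0 were DEGs on any day, where 9.56%, 9.36% and 12.7% of all genes were higher DEGs at 5, 8 and 28 days. With the FDR alone, 3, 1 and 2 of them passed upward on these days, and 1 passed downward at 28 days, where the shares of all genes were 15.2%, 13.9% and 19.2% upward and 14.3% downward. Nfe2l1, the factor that drives constitutive proteasome genes, had a Log2FC of −0.06 at 5 days and the ubiquitin receptor gene Adrm1 0.10. Both lists were compiled by hand.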

How the data were processed

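RNA of the left hippocampus was measured in 31 mice. Per the study's methods, the authors used fastp for trimming, salmon against GENCODE M29 (with correction for GC bias) for quantification and tximeta for gene sums. The values are expected counts per gene as deposited by the authors, whole numbers without normalization, restricted by them to genes that reached 15 counts in 15 or more mice, and 0 columns were left unused. Counting error and the spread between mice both enter the model. Its p-values weigh the difference between groups against the spread that the surrogate variables leave, estimated over all 8 groups. Nothing in the labels says whether mice shared a litter.

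Mice were grouped by vector and day as labelled. Counts were scaled with TMM in edgeR 4.0.16 (R 4.3.3) and tested with its quasi-likelihood F-test, all mice together, with 2 surrogate variables from sva 3.50.0. FDR values are Benjamini-Hochberg values over 15648 genes, intervals are 95% intervals of the Log2FC, and interactions came from the same model. In simulated data of 15648 genes for 5 days, genes changed 1.5-fold were recovered in 30%, 2-fold in 82% and 4-fold in 98%. There were 2 false calls among the genes left unchanged. A 1.5-fold change lies below the Log2FC limit of 0.66, so the 30% does not measure the power of the test alone. Ratios of counts within a mouse used a pseudocount of 0.5 and a 2-sided exact permutation test. Levels per length used the median length of protein-coding transcripts in GENCODE M21, since the M29 annotation was not used here. Promoter windows come from the older build GRCm38.p6, and no coordinate was converted.

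Members and lists were chosen with earlier results of these data known. Named genes were the catalytic subunits, Psme1, Psme2, Tap1, Tap2 and Tapbp in every mouse, any other called member, the member with the highest and the lowest Log2FC beyond those at each day, the activators, chaperones and inhibitor, and listed pathway genes, of which 1 is not reported here. Values of Psme4, Psmg4 and Psme2b per mouse, and the members that passed the FDR alone, were added after seeing the data.

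The alternatives were DESeq2 1.42.0 with and without ashr 2.2.63, limma 3.58.1 voom, DESeq2 size factors, no covariates, the batch label with and without surrogate variables, at least 15 counts in every mouse, FDR alone, single days, single batches, other pseudocounts and each mouse left out. Surrogate variables from TMM-scaled CPM and the fit without D720 were chosen after seeing the data.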

Additional observations from a re-analysis of the deposited data

Results flagged for a closer look

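For 98 combinations of a gene or ratio with a group of 4 mice, a single mouse far from the other 3 was searched for, and 4 held one. Chance gives about 1 in 20, so this count is no more than chance alone would give. The search did not flag D844 or BEC-B542. In rAAV-OVA mice at 5 days, Psmb10 was at 72.8 CPM in D726 and at 87.2 to 89.9 CPM in the others. The log2 ratio of Psmb10 to Psmb7 was −0.82 in rAAV-OVA mouse D701 at 8 days and between −0.34 and −0.25 in the others of its group. In rAAV-control mice, Tap1 was at 24.8 CPM in BEC-R385 at 2 days and at 14.8 to 15.6 CPM in the others, and Psme2 was at 16.4 CPM in D843 at 28 days and at 17.8 to 17.9 CPM in the others.

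The response to rAAV-OVA differed between time points by the interaction test of edgeR in 10 members. From 2 to 5 days the Log2FC increased by 3.40 for Psmb8, 3.15 for Psmb9, 1.16 for Psmb10, 1.73 for Psme1, 1.75 for Psme2, 3.21 for Psme2b, 3.21 for Tap1, 2.17 for Tap2 and 2.37 for Tapbp, with an edgeR FDR between 0.000514 and 0.00748. For Psme4 the difference between 28 and 5 days was −0.70 (edgeR FDR 0.0106).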

How the results depend on the processing

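No paired analysis was possible because a replicate number marks no shared animal, litter or day across the groups. No called value changed sign in any alternative, while values that were not called did, such as the Psmb8/Psmb5 ratio at 2 days (−0.31 in batch 1 alone). The 9 members called higher at 5 days stayed called with each mouse left out (9 to 10 members) and in every alternative that tested them, Psme2b being absent under the filter of 15 counts in every mouse. With the FDR alone 16 passed, and Psmg4 was called in 5 alternatives and without D684, D740, D745, D755, D700, D701, D722, D851, D705, D845 or D844 (Log2FC 0.69 to 0.88). At 8 days the count was 5 without covariates or with the batch label, 0 with the mice of that day alone (0 of 15648 genes called there), and 4 to 9 with each mouse left out, while Psmb9, Psme1, Psme2 and Tap2 kept their calls without any single mouse. With the mice of 8 days alone, the Log2FC of the 9 genes still lay between 1.06 (Psmb10) and 2.28 (Psmb9). Psmb10 lost its call at 8 days without D696, D722 or D845, and Psme2b without D722 or BEC-B541. At 28 days the count was 0 in batch 2 alone (0 of 15648 genes called there) and 8 to 10 with each mouse left out, Psmb10 lost its call without D661, D851 or D696, with ashr (0.65) and in batch 1 alone (Log2FC 1.61, edgeR FDR 0.0628, n = 2 each), and Psmg4 was called without D845 (0.71). With the FDR alone, 1 member was lower at 28 days and 3 had a lower response at 28 than at 5 days, namely Psme4, Psmd11 and Psmd12. The Psme4 call between 28 and 5 days was 0 with ashr, without covariates, with the batch label, with 15 counts required in every mouse, with surrogate variables from TMM-scaled CPM, and 0 to 1 with each mouse left out. Psme4 was the 1 member called between 28 and 8 days with the DESeq2 Wald test, and 0 to 1 members were called with each mouse left out, the calls coming without D696 or D667. In rAAV-control mice between 28 and 2 days, 1 member was called lower with the DESeq2 Wald test and 1 with ashr, Psmb9 in both, and 0 to 1 with each mouse left out. Taken from the Log2FC of the model, the ratio differences at 5 days were 3.79 for Psmb8/Psmb5, 3.70 for Psmb9/Psmb6 and 1.31 for Psmb10/Psmb7. The cause of these changes was not tested. Psme2b, at 7.47 CPM at most, was the only member with fewer than 15 counts in some mice.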

Other observations

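The constitutive barrel showed a pattern by batch at 2 days. The summed level of the 14 core genes without the inducible subunits was 1390, 2019, 1585 and 1185 CPM in the 4 batch 1 mice D683, D684, D740 and D743 and between 903 and 944 CPM in the 4 batch 2 mice of both vectors. Of the 44 remaining members, 31 (70.5%) had all 4 batch 1 mice above all 4 batch 2 mice, next to 13.5% of all genes, and rAAV-OVA mouse D684 was the highest for 34 of them. Of the 9 inducible members 1 (11.1%) had this order. At 28 days it was found in 3 of the 44 (6.82%), next to 0.914% of all genes. Both vectors held 2 mice of each batch on these days. The mean core sum in rAAV-OVA and rAAV-control mice was 1312 ± 521 and 1159 ± 308 CPM at 2 days (SD, n = 4 each), 1322 ± 46.1 and 1109 ± 106 CPM at 5 days (n = 4 each), 1210 ± 115 and 1055 ± 103 CPM at 8 days (n = 4 and 3) and 1063 ± 148 and 927 ± 35.6 CPM at 28 days (n = 4 each).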
